A study of Homo sapiens with 4 samples.

Results

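The genes followed here encode 8 surface proteins that are used or studied as targets on prostate cancer cells: FOLH1, STEAP1, STEAP2, STEAP4, PSCA, CD276, EPCAM and CD46. They were chosen by symbol, and all 8 were among the 33538 genes of the deposited count matrices. Single-cell RNA sequencing (scRNA-seq) had been performed on LNCaP, a human prostate cancer cell line that responds to androgen, with 1 library per group and no replicates. The LNCaP library was the parental line in 0.1% DMSO, the solvent, for 48 h. LNCaP-ENZ48 was the same line given 10 µM enzalutamide (ENZ), an inhibitor of androgen signalling, for 48 h. RES-A and RES-B were ENZ-resistant lines derived from LNCaP by prolonged exposure to anti-androgens, RES-A in rising ENZ concentrations and RES-B in the related compound RD-162, and both were kept in 10 µM ENZ. Each resistant line is a single derivative of LNCaP, so what belongs to resistance and what belongs to that line cannot be told apart. All cells grew in serum-containing medium and were sorted as living cells before capture. The values are RNA levels, and protein on the cell surface was not measured.

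FOLH1 encodes PSMA, a membrane peptidase that releases glutamate from folates and small peptides and is the target of PSMA imaging and radioligand therapy. The STEAP proteins are membrane metalloreductases, and STEAP1, which works with partners, is itself a target for antibodies and T cell engagers. PSCA is a small lipid-anchored protein of the Ly6 family, CD276 (B7-H3) is an immune checkpoint relative of PD-L1, EPCAM is an epithelial adhesion molecule, and CD46 protects cells from complement. Several prostate surface genes are known to respond to androgen, and PSMA is known to rise when androgen signalling is blocked, which is why their levels under ENZ are of practical interest.

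After filtering, 14727 of 17233 cell barcodes remained. LNCaP had 1782 cells, LNCaP-ENZ48 had 4315, RES-A had 4569, and 4061 were from RES-B. Where 4 values follow each other without names below, they are in this order of libraries. The libraries held 50208831 to 60838227 UMIs, molecular barcodes of which 1 counts 1 captured RNA. LNCaP cells were deepest, with a median of 27079.5 UMIs against 12138 to 13676 in the other libraries, so shares of cells are given after drawing 5000 UMIs at random from every cell (thinning). Every kept cell was deep enough for this. Pairs of libraries shared 2 to 9 barcodes. The luminal markers KRT8, KRT18 and HOXB13 stood at 92.0 to 918 CPM (counts scaled to the same library total) in every library. KLK3, a luminal marker that encodes PSA, stood at 718, 95, 0.0349 and 30.5 CPM, and its 2 UMIs in RES-A, under the floor of 3, are too few for a level. Summed markers of other cell types reached at most 0.299 CPM for basal, 4.42 for neuroendocrine, 3.23 for stromal and endothelial and 0.105 for immune cells. PTPRC, CD3E, TP63, KRT5 and CHGA were at 0 in all 4 libraries. No cell type within a library should lack the antigens, so a share of cells due to free RNA could not be measured for them.

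FOLH1 (ENSG00000086205, GRCh38 chr11:49145092-49208638, minus strand) was the antigen with the largest difference after 48 h of ENZ, and in the opposite direction to that of the resistant lines. Its level was 331 CPM in LNCaP (95% interval 326 to 336) and 533 CPM in LNCaP-ENZ48 (527 to 539). The resistant lines stood at 241 CPM for RES-A (237 to 245) and 184 CPM for RES-B (181 to 188). The short ENZ treatment stood above the untreated line and both resistant lines stood below it, and each step in this order was larger than counting error. The level was 1.61-fold higher in LNCaP-ENZ48 than in LNCaP (log2 ratio 0.69, 0.66 to 0.71), 1.37-fold lower in RES-A (-0.46, -0.49 to -0.43) and 1.80-fold lower in RES-B (-0.85, -0.88 to -0.81). Against LNCaP-ENZ48, which was in the same concentration of drug, FOLH1 was 2.21-fold lower in RES-A and 2.89-fold lower in RES-B. These intervals, like all that follow, cover counting error only and say nothing of the spread between cultures, which 1 library per group cannot show.

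The share of cells with a FOLH1 UMI had the same order over the libraries as its level. At 5000 UMIs per cell, 78.0% of LNCaP cells held a FOLH1 UMI (76.0% to 79.9%), as did 90.8% of LNCaP-ENZ48 (89.8% to 91.6%), against 68.5% for RES-A (67.1% to 69.8%) and 55.5% for RES-B (54.0% to 57.1%). Cells with 5 or more FOLH1 UMIs made up 3.37%, 16.9%, 1.34% and 0.788% of the 4 libraries. Without thinning, the share with a FOLH1 UMI was 99.5%, 99.3%, 91.8% and 81.0%, at the unequal depths given above. The variance of the thinned counts was 1.13 to 1.30 times their mean in the 4 libraries, where 1 is what counting alone gives. Of the sequence in the last 500 bases of its coding transcripts, 33.2% of 31-base words also occur in FOLH1B, a near copy that is not a row of the matrices, and its part in the counts was not tested.

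**Figure D1:**
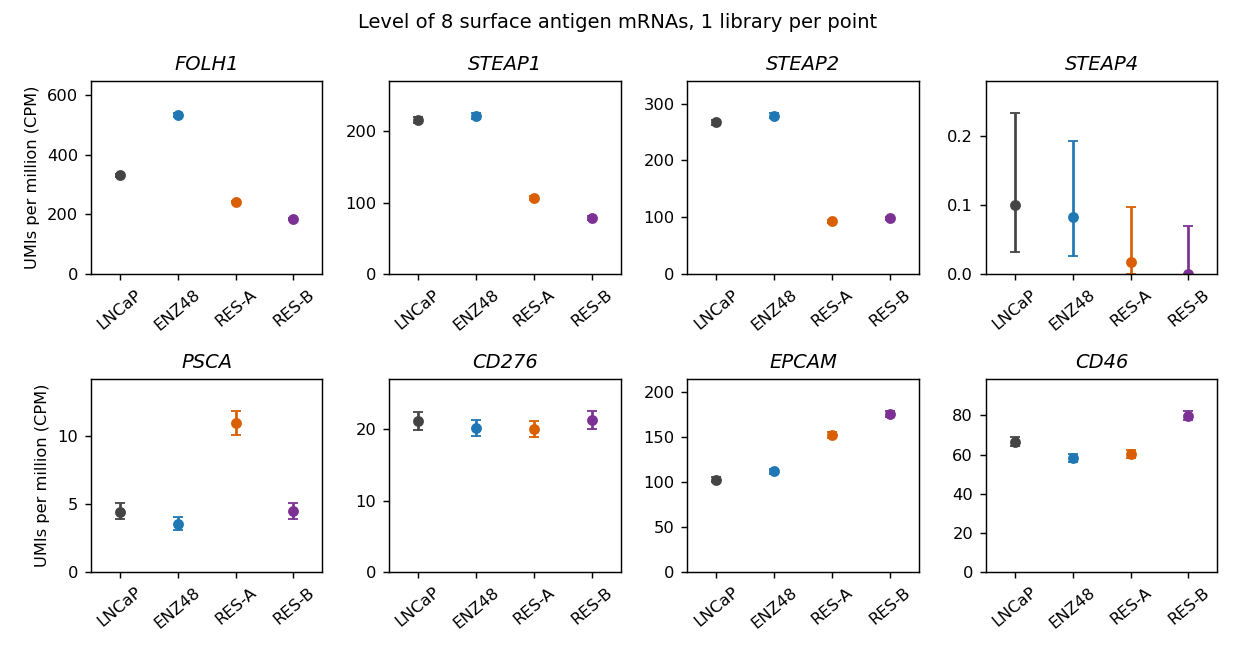
Level of each antigen in CPM (y axis, linear from 0, a different scale in each panel) in the 4 libraries (x axis; ENZ48 is LNCaP-ENZ48), 1 point per library with its exact Poisson 95% interval. FOLH1 peaks at 533 CPM in LNCaP-ENZ48, STEAP1 and STEAP2 are at 78.5 to 107 CPM in the resistant lines against 216 to 279 in the other libraries, and EPCAM is highest in RES-B at 175.

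STEAP1 (ENSG00000164647, chr7:90154456-90164829, plus strand) and STEAP2 (ENSG00000157214, chr7:90167590-90238137, plus strand) are neighbours on chromosome 7 and had a common pattern, with little difference after 48 h and much lower levels in both resistant lines. STEAP1, a membrane protein that pairs with the metalloreductases of its family, stood at 216 CPM without drug, 222 CPM in LNCaP-ENZ48, 107 CPM in RES-A and, lowest, 78.5 CPM in RES-B. STEAP2, which reduces iron and copper, stood at 267, 279, 92.9 and 98.6 CPM in the same order. For both genes the LNCaP and LNCaP-ENZ48 libraries lay together and well above RES-A and RES-B. The log2 ratio of STEAP1 to LNCaP was 0.04 (0.0043 to 0.077) for LNCaP-ENZ48, -1.01 (-1.06 to -0.96) for RES-A and -1.46 (-1.51 to -1.41) for RES-B. That of STEAP2 was 0.06 (0.03 to 0.09), -1.52 (-1.57 to -1.48) and -1.44 (-1.49 to -1.39). In fold, STEAP1 was 2.01-fold lower in RES-A and 2.75-fold lower in RES-B, and STEAP2 2.88-fold and 2.71-fold lower. The resistant lines differed from each other in STEAP1, which was 1.36-fold lower in RES-B than in RES-A, more than in STEAP2, where the log2 ratio was 0.09 (0.03 to 0.14). Among cells called G1 alone, the STEAP1 ratio of RES-A to LNCaP was -0.95, just short of 2-fold.

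At equal depth, fewer resistant cells than LNCaP or LNCaP-ENZ48 cells held a STEAP1 UMI, and the same was true of STEAP2. STEAP1 was found in 62.6%, 64.2%, 34.3% and 29.1% of cells at 5000 UMIs. STEAP2 was found in 70.4%, 71.0%, 30.8% and 32.8%. Unthinned, the resistant lines had shares of 57.1% (RES-A) and 51.5% (RES-B) for STEAP1 and of 52.9% and 55.7% for STEAP2, while each gene was found in at least 98.1% of the deeper LNCaP cells. Both genes were more unevenly spread among resistant cells: the variance of the thinned counts over their mean was 1.12 to 1.19 for STEAP1 and 1.19 to 1.25 for STEAP2 in LNCaP and LNCaP-ENZ48, and 1.25 to 1.48 and 1.37 to 1.38 in the resistant lines. The pair also tended to be found in the same cells. In RES-A, STEAP1 was detected in 49.1% of cells with a STEAP2 UMI (46.5% to 51.8%) and in 27.6% of cells without one (26.1% to 29.2%). In RES-B these shares were 39.5% (36.9% to 42.2%) and 23.9% (22.4% to 25.6%). In LNCaP they were 63.7% (60.9% to 66.3%) and 60.2% (55.8% to 64.4%), intervals that overlap, and in LNCaP-ENZ48 66.9% (65.3% to 68.6%) and 57.6% (54.8% to 60.4%).

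Because STEAP1 and STEAP2 lie side by side and differ together, the sequence at their start sites is shown, from RefSeq on GRCh38.p14, in windows of 250 bases before to 50 bases after the start in the direction of the gene. STEAP1 has a near copy, STEAP1B, elsewhere on chromosome 7, and 290 of the 300 bases are equal in both windows. Capitals in the first 2 sequences mark the 10 bases that differ between STEAP1 (chr7:90154219-90154518, plus strand) and STEAP1B (chr7:22500139-22500438, minus strand).
STEAP1: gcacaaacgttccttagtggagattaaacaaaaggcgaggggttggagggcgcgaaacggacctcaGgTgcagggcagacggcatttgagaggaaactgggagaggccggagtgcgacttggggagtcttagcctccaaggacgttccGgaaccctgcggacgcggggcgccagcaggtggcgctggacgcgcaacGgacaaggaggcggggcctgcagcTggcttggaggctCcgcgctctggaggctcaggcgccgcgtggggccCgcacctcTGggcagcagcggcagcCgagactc
STEAP1B: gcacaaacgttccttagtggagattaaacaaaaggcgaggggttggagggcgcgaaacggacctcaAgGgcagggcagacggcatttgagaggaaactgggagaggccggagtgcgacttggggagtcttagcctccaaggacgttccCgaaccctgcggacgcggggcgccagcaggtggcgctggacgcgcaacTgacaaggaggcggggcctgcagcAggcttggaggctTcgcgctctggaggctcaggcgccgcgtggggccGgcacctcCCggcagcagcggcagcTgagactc
STEAP1B RNA was at 0.0951 to 0.366 CPM in the 4 libraries, although its start window is 96.7% equal to that of STEAP1. In the last 500 bases of the STEAP1 transcript, 18.7% of 31-base words also occur in STEAP1B, and the effect of this on the counts was not tested.

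STEAP2 has a pair of start sites in the table, 1 in GC-rich sequence (70.3% G or C, chr7:90211490-90211789) and 1 in AT-rich sequence (33.7%, chr7:90213570-90213869), both on the plus strand. Both windows lie inside the gene as annotated in GENCODE 44 (chr7:90167590-90238137). The end of that annotation nearest to STEAP1 had no window and is not shown. Capitals here mark matches to the motifs searched.
STEAP2, first start: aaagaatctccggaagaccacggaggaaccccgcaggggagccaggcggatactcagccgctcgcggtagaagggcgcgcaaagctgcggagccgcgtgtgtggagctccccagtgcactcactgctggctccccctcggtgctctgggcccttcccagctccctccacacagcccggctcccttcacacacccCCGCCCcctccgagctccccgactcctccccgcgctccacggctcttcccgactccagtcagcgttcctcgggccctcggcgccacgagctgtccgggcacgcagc
STEAP2, second start: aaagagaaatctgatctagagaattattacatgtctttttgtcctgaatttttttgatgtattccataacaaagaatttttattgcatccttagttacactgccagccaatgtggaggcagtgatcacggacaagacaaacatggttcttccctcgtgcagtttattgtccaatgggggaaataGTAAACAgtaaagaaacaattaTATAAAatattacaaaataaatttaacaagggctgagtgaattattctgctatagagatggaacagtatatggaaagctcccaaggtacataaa
The capitals are a GC box (GGGCGG, on the reverse strand) in the first window, and in the second a forkhead motif (TGTTTAC, on the reverse strand) followed by a TATA motif (TATAAA). Among all 35114 promoter windows of this length, 44.95% held the GC box, 3.42% the forkhead motif and 11.5% TATAAA. No match to the full androgen response element (AGAACA and TGTTCT separated by 3 bases) was found in the windows of the 5 antigens in the table (STEAP1, STEAP2, STEAP4, CD276 and CD46), and only 1 of the 35114 windows held one. Its right arm TGTTCT, which is also part of the full element, occurs in 14.8% of all windows and was found in CD46 alone among the antigens. The E-box CACGTG (7.26% of all windows) was found in none of the 5, and the STEAP1 window held none of the motifs searched, each of which was looked for on both strands. A match to these letters is a description of the window and not a binding site.

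STEAP4 (ENSG00000127954, chr7:88270892-88306894, minus strand), a metalloreductase of the same family, was close to absent. It had 5, 5, 1 and 0 UMIs. For the 0 of 4061 cells in RES-B, the floor of 3 cells is a share of 0.0739%, and the exact binomial 95% interval reaches 0.0908%. These counts are too few for a ratio. The remaining family member in the related gene list, STEAP3, stood at 5.66, 5.11, 7.73 and 4.62 CPM, and neither it nor STEAP1B reached 10 CPM.

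EPCAM (ENSG00000119888, chr2:47345158-47387601, plus strand) was higher in both resistant lines, the reverse of FOLH1 and the STEAP pair. Its level was 103 CPM without drug, 112 CPM after 48 h of ENZ, 152 CPM in RES-A and, highest, 175 CPM in RES-B. Each library in this order stood above the one before by more than counting error. The log2 ratio to LNCaP was 0.13 (0.07 to 0.18) after 48 h, 0.57 (0.52 to 0.62) for RES-A and 0.77 (0.72 to 0.82) for RES-B, the last a 1.71-fold higher level. The share of cells with an EPCAM UMI at 5000 UMIs was 39.4% (37.1% to 41.7%), 41.8% (40.3% to 43.2%), 53.4% (51.99% to 54.9%) and 58.3% (56.8% to 59.8%). Its counts were spread as counting alone would give, with a variance of 0.963 to 1.04 times the mean. The list of EPCAM partners and processing genes held 3 or 4 members above 10 CPM in each comparison with LNCaP, none of which passed 2-fold. Of all genes, 0.940%, 9.79% and 9.49% passed it in either direction in LNCaP-ENZ48, RES-A and RES-B, so this count says little. CD9, a tetraspanin found in complexes with EPCAM, stood at 365, 418, 632 and 568 CPM, and CLDN7, a claudin that binds it, at 311, 277, 288 and 233.

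PSCA (ENSG00000167653, chromosome 8) was scarce in all 4 libraries and stood apart in RES-A alone. Its level was 10.9 CPM in RES-A (10.1 to 11.8), against 4.42 CPM in LNCaP (3.86 to 5.04), 3.52 CPM in LNCaP-ENZ48 (3.06 to 4.02) and 4.47 CPM in RES-B (3.92 to 5.08). RES-A did not overlap the other libraries, and LNCaP and RES-B could not be told apart at this depth (log2 ratio 0.02, -0.26 to 0.29). LNCaP-ENZ48 stood slightly lower than LNCaP (log2 ratio -0.33, -0.61 to -0.05). PSCA was 2.47-fold higher in RES-A than in LNCaP (log2 ratio 1.30, 1.08 to 1.53) and 2.44-fold lower in RES-B than in RES-A. A PSCA UMI was found in 5.38% of RES-A cells at 5000 UMIs (4.75% to 6.08%) against 1.85% to 2.12% of cells in the other libraries, and no cell had more than 2. The variance over the mean was 1.02 in RES-A, close to counting alone. Of 6 genes of the Ly6 family, only LY6E (57.8, 49.6, 73.9 and 42.2 CPM) and CD59 reached 10 CPM, and neither passed 2-fold. Of all genes at most 9.79% passed it in a comparison, so this says little of the family.

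CD276 (ENSG00000103855, chr15:73683966-73714514, plus strand) had nearly the same level in the 4 libraries. It stood at 21.1, 20.2, 20.004 and 21.3 CPM. The log2 ratio to LNCaP was -0.06 (-0.18 to 0.06), -0.08 (-0.20 to 0.05) and 0.01 (-0.11 to 0.13), intervals that all include 0 and none of which reaches beyond -0.20 or 0.13. The share of cells with a CD276 UMI at 5000 UMIs lay between 9.13% and 11.2%. None of the 9 other members of the B7 family of immune checkpoints reached 10 CPM in any library. CD274, which encodes PD-L1, was at 4.30, 4.13, 0.0698 and 0.894 CPM. VTCN1, another member, was highest in RES-B, at 0.0797, 0.0329, 0.262 and 4.22 CPM (4, 2, 15 and 222 UMIs).

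CD46 (ENSG00000117335, chr1:207752037-207795513, plus strand), which helps inactivate complement on the cell surface, differed little. Its level was 66.5, 58.2, 60.3 and 79.8 CPM. RES-B was the highest and the remaining libraries lay close together. The log2 ratio to LNCaP was -0.19 (-0.26 to -0.12) for LNCaP-ENZ48, -0.14 (-0.21 to -0.07) for RES-A and 0.26 (0.20 to 0.33) for RES-B. A CD46 UMI was found in 27.7%, 24.3%, 25.7% and 32.4% of cells. Of the other complement regulators, CD59 stood at 23.5, 27.0, 26.7 and 21.6 CPM, whereas CD55 stood at 1.53, 1.22, 12.5 and 5.57 CPM, 8.13-fold higher in RES-A than in LNCaP. CD55 reached 10 CPM in RES-A alone, so it was named through the library where it is highest. CR1 and CR1L were at 0 in all 4 libraries.

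**Figure D2:**
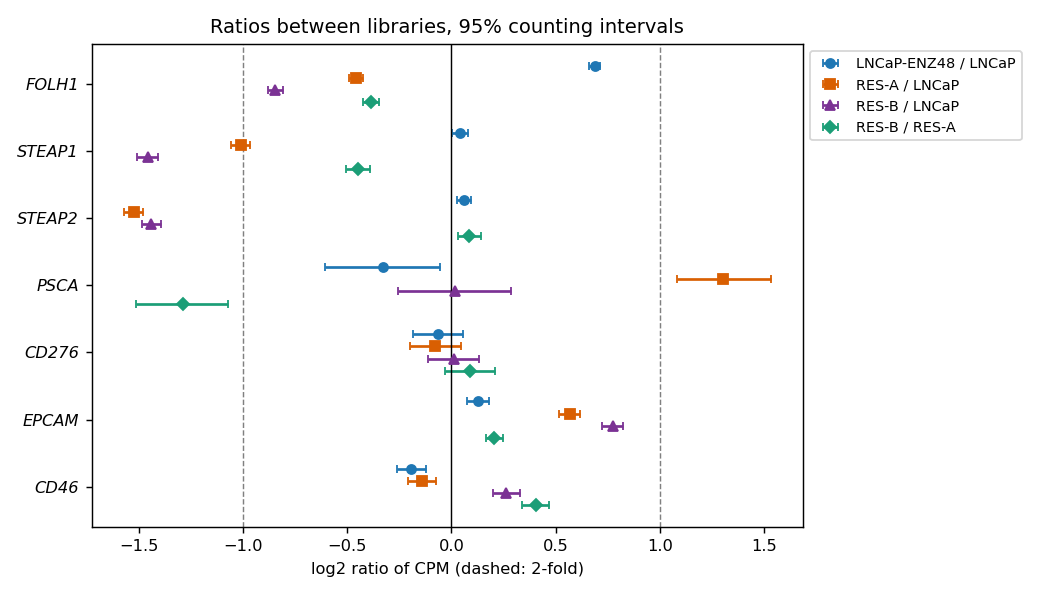
Log2 ratio of CPM (x axis, dashed lines at 2-fold) for 7 antigens (y axis, STEAP4 left out for its few UMIs) in LNCaP-ENZ48, RES-A and RES-B against LNCaP and in RES-B against RES-A, with exact 95% counting intervals. STEAP1 and STEAP2 lie at or beyond the lower dashed line in both resistant lines, PSCA beyond the upper line in RES-A at 1.30, and FOLH1 at 0.69 in LNCaP-ENZ48 against -0.46 and -0.85 in the resistant lines.

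The antigens were set against all genes that reached 10 CPM in either library of a comparison. In LNCaP-ENZ48 against LNCaP, 6 antigens reached 10 CPM and 0 passed 2-fold in either direction, where 0.212% of 7554 genes were higher and 0.728% lower. In RES-A against LNCaP, 1 of 7 was higher (PSCA) and 2 were lower (STEAP1 and STEAP2), against 4.8% and 4.99% of 7975 genes. PSCA, which reached 10 CPM in RES-A alone, had to differ to be counted, both there and between the resistant lines. In RES-B against LNCaP, 0 of 6 were higher and 2 were lower (STEAP1 and STEAP2), against 5.76% and 3.73% of 8090 genes. In RES-B against RES-A, 0 of 7 were higher and 1 was lower (PSCA), against 3.95% and 2.3% of 7954 genes. STEAP4 reached 10 CPM in no library. The median log2 ratio of the antigens that passed was 0.05, -0.14 and -0.42 for LNCaP-ENZ48, RES-A and RES-B against LNCaP, beside medians of -0.08, 0.02 and 0.12 over all genes. These 3 comparisons share the LNCaP library. Scaling by TMM in place of the total put the all-gene medians at 0.03, -0.03 and 0.02, and moved every antigen by the same amount.

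The antigens can be set beside genes that follow androgen. Of the 11 genes of the androgen response list, 6, 7 and 6 were lower by at least 2-fold in the same 3 comparisons and none was higher, where 0.728%, 4.99% and 3.73% of all genes were lower. Several of these reached 10 CPM through LNCaP alone and had to be lower if they differed by 2-fold. They were SLC45A3 and C1orf116 in LNCaP-ENZ48, and ABCC4 and SLC45A3 in RES-B. In RES-A they were most of the genes counted, namely KLK2, KLK3, TMPRSS2, ABCC4 and SLC45A3. The counts for this list are therefore a description. TMPRSS2, a protease gene that responds to androgen, stood at 106, 25.5, 7.50 and 19.3 CPM. At 48 h of ENZ, when TMPRSS2 was 4.16-fold lower, the log2 ratios of STEAP1 and STEAP2 were 0.04 and 0.06. Of 20 other surface targets, 9 reached 10 CPM in LNCaP-ENZ48 or LNCaP, and 2 of them were lower by at least 2-fold and none higher. In RES-A against LNCaP 4 of 9 were lower and none higher, and in RES-B 2 of 10 were lower and 1 higher, where 4.99% and 3.73% of all genes were lower and 4.8% and 5.76% higher. Of the surface targets that were lower, those other than SLC39A6, a zinc transporter, reached 10 CPM through LNCaP alone in these comparisons and had to be lower if they differed by 2-fold, so the counts are a description. SLC45A3, a prostate transporter that is also in the androgen response list, was at 36.2, 6.99, 0.663 and 0.609 CPM, and TMEFF2 at 15.3, 3.55, 0.419 and 0.285. ERBB3, a growth factor receptor, was highest in RES-B (57.2, 46.9, 69.7 and 117 CPM), and DLL3, a Notch ligand, in RES-A (43.1, 38.6, 65.8 and 41.5 CPM). In the lists for folate handling and metal uptake, GGH, a folate hydrolase of the lysosome, was the only gene of those above 10 CPM past 2-fold against LNCaP, at 27.2, 20.9, 76.0 and 30.7 CPM. TFRC, the transferrin receptor and a relative of FOLH1, was at 48.3, 53.5, 50.7 and 37.8 CPM, and SLC31A1, a copper importer, at 61.8, 49.6, 31.9 and 49.0.

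**Figure D3:**
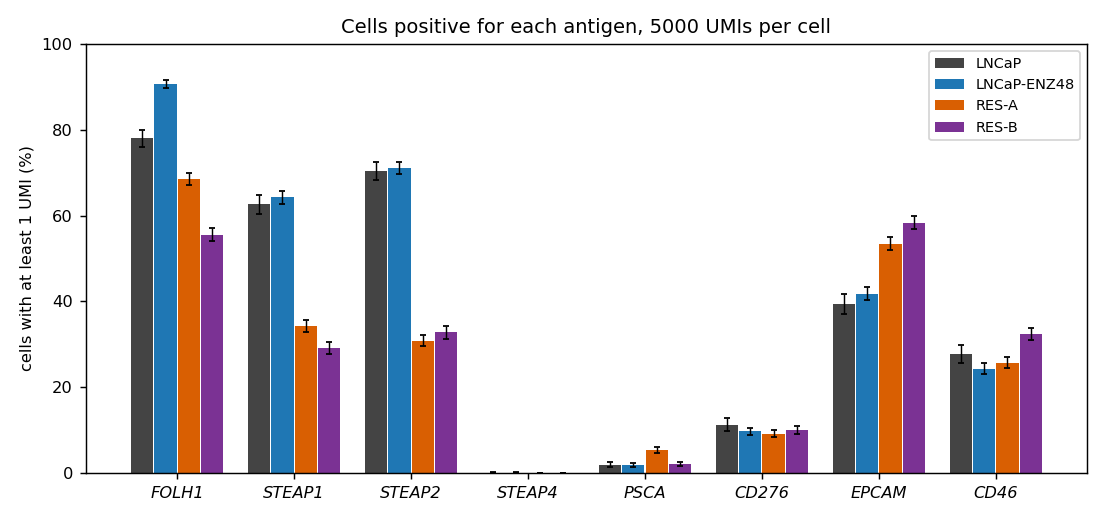
Share of cells with at least 1 UMI of each antigen (y axis, percent) after thinning every cell to 5000 UMIs, 1 bar per library with its exact binomial 95% interval. FOLH1 spans 55.5% in RES-B to 90.8% in LNCaP-ENZ48, STEAP2 lies at 70.4% and 71.0% in LNCaP and LNCaP-ENZ48 and at 30.8% and 32.8% in the resistant lines, and EPCAM reaches 58.3% in RES-B.

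Taking the 8 antigens in each cell, fewer kinds were detected in resistant cells at equal depth. The mean number detected is the sum of the 8 single shares, so it restates them and is not a separate result. The mean number detected at 5000 UMIs was 2.91 for LNCaP (SD among cells 1.098), 3.04 for LNCaP-ENZ48 (1.06), 2.27 for RES-A (1.18) and 2.20 for RES-B (1.17). The median was 3 in the former pair and 2 in the resistant lines. Cells with none of the 8 made up 1.12%, 0.487%, 4.88% and 5.96%. All of FOLH1, STEAP1 and STEAP2 were found together in 35.8% of LNCaP cells (33.6% to 38.1%), 43.7% after 48 h of ENZ (42.2% to 45.2%), 10.9% in RES-A (10.1% to 11.9%) and 8.52% in RES-B (7.68% to 9.42%). None of these 3 was found in 3.25% (2.48% to 4.19%), 1.34% (1.02% to 1.73%), 16.9% (15.8% to 18.02%) and 24.6% (23.2% to 25.9%). These joint shares were not compared with what the single shares would give. A cell without a UMI at this depth may still express the gene.

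**Figure D4:**
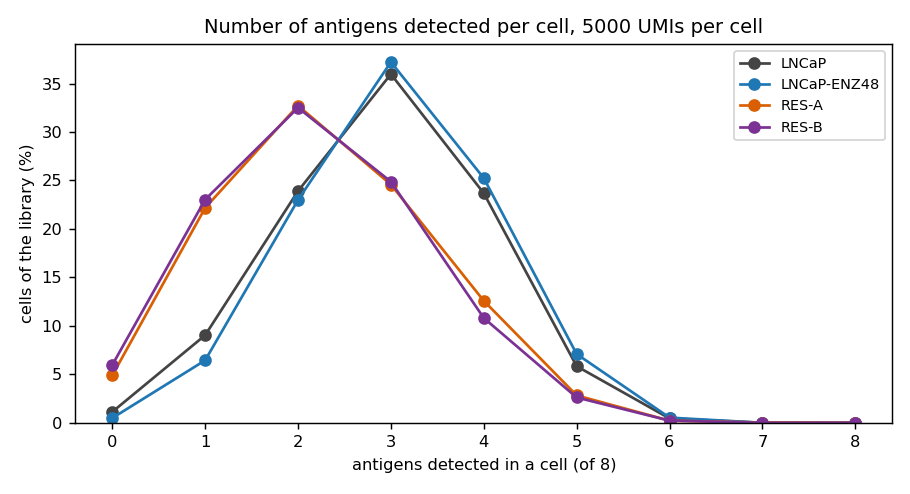
Share of the cells of each library (y axis, percent) by the number of the 8 antigens detected in a cell (x axis), after thinning to 5000 UMIs. The LNCaP and LNCaP-ENZ48 curves peak at 3 antigens (36.0% and 37.2% of cells) and those of RES-A and RES-B at 2 (32.7% and 32.5%).

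The shares of cells with EPCAM, CD46 or CD276 had overlapping intervals in cells with and without a FOLH1 UMI in every library, which does not show that they are equal. The widest gap was that of EPCAM in LNCaP, found in 44.9% of cells without a FOLH1 UMI (39.9% to 49.97%) and in 37.8% of cells with one (35.3% to 40.5%). Among RES-B cells, EPCAM was found in 58.9% of 1806 cells without a FOLH1 UMI (56.6% to 61.2%) and in 57.8% of 2255 cells with one (55.8% to 59.9%), and CD46 in 32.5% and 32.4%. In RES-A the EPCAM shares were 52.3% (49.7% to 54.9%) and 54.0% (52.2% to 55.7%). STEAP2 was found less in cells without a FOLH1 UMI in every library. In RES-B it was 27.8% (25.7% to 29.9%) against 36.7% (34.7% to 38.7%). In RES-A it was 27.8% (25.5% to 30.2%) against 32.2% (30.6% to 33.9%). The STEAP2 shares were 65.1% against 71.9% in LNCaP and 67.4% against 71.4% in LNCaP-ENZ48, with overlapping intervals. Only 392 and 399 cells lacked a FOLH1 UMI there, against 1440 in RES-A and 1806 in RES-B. Overlap in these smaller groups does not show that the gap is particular to resistant cells. Neither FOLH1 nor EPCAM was found in 12.1%, 5.17%, 15.04% and 18.3% of cells.

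Within each library STEAP2, STEAP1 and FOLH1 were lower in cells called G2/M than in cells called G1, at equal UMIs per cell. G1 calls made up 69.5%, 79.2%, 63.8% and 71.5% of cells. STEAP2 stood at 292 CPM in G1 and 145 in G2/M cells of LNCaP, 308 and 129 in LNCaP-ENZ48, 101 and 39.5 in RES-A, and 108 and 47.4 in RES-B. The log2 ratios were -1.01 (-1.21 to -0.81), -1.26 (-1.43 to -1.09), -1.36 (-1.60 to -1.12) and -1.19 (-1.43 to -0.95), so that in all 4 libraries the level in G2/M cells was at most 50% of that in G1. For FOLH1 they were -0.54 (-0.70 to -0.38), -0.45 (-0.55 to -0.36), -0.26 (-0.36 to -0.15) and -0.9998 (-1.17 to -0.84), with the widest gap in RES-B (201 and 100.3 CPM). For STEAP1 they were -0.36, -0.56, -0.75 and -0.29, and none of the 4 intervals reached 0. The intervals of EPCAM, CD46 and CD276 reached 0 in all 4 libraries. PSCA was lower in G2/M than in G1 cells of RES-A (6.46 and 12.4 CPM, log2 ratio -0.94, -1.60 to -0.34), and its intervals in the other libraries, on few UMIs, reached 0. S phase cells lay between for STEAP2, with log2 ratios to G1 of -0.15 (-0.33 to 0.03), -0.42, -0.20 and -0.47.

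Sorted by an androgen response score, the summed thinned UMIs of the 11 listed genes, cells of LNCaP differed in STEAP2. Its level was 225 CPM in the 713 lowest-scoring LNCaP cells and 311 in the 630 highest-scoring ones (log2 ratio 0.47, 0.33 to 0.61). STEAP1 differed by 0.24 (0.09 to 0.40), CD46 by 0.32 (0.05 to 0.59) and FOLH1 by 0.13 (0.01 to 0.25), and the intervals spanned 0 for EPCAM (-0.24 to 0.22), CD276 (-0.42, -0.93 to 0.07) and PSCA (-0.82, -2.25 to 0.49). In the libraries under ENZ the score was low, with a median of 1 UMI against 6 in LNCaP, so the score groups separate cells poorly there. In RES-A the lower group held the 1690 cells at 0 and the upper group the 2879 others. The STEAP2 ratios were then 0.09 (0.01 to 0.16), 0.07 (-0.06 to 0.20) and -0.01 (-0.14 to 0.12) from LNCaP-ENZ48 to RES-B. STEAP1 in RES-B was lower in the upper group (-0.15, -0.29 to -0.001), the reverse of LNCaP. PSCA in RES-A was higher there (0.42, 0.03 to 0.82). All other intervals in these libraries spanned 0. Cycle phase and score were not separated from each other in these comparisons.

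**Figure D5:**
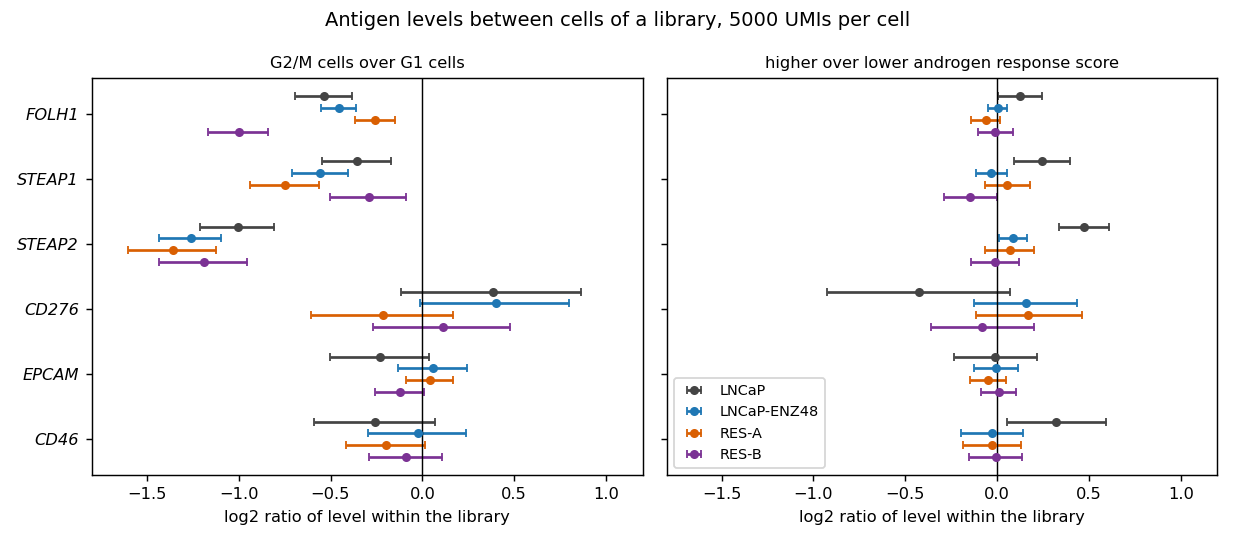
Log2 ratio of level (x axis) between cells of the same library, G2/M over G1 (left) and higher over lower androgen response score (right), for 6 antigens (y axis), 1 point per library with its exact 95% counting interval. STEAP2 lies between -1.01 and -1.36 in the left panel in all 4 libraries, and at 0.47 in LNCaP in the right panel.

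The chromosome surroundings differed between antigens. Over the 25 expressed protein-coding genes on each side of STEAP1, the median log2 ratio to LNCaP was 0.04 for RES-A and 0.07 for RES-B. These were close to the medians of all such genes (0.02 and 0.12). Only 6% of these neighbours had a lower ratio than STEAP1 in either line. The neighbours include STEAP2, which lay below STEAP1 in RES-A (log2 ratios -1.52 and -1.01). Around FOLH1 the median was -0.28 in RES-B against 0.12 over all genes, and 14% of the neighbours lay below FOLH1. In LNCaP-ENZ48 the FOLH1 ratio was above that of all 50 neighbours. Around CD46 the median in RES-B was 0.51, above the 0.26 of CD46 itself, and around CD276 it was -0.39 in RES-A and -0.19 in RES-B, below CD276. The EPCAM neighbours lay at 0.05 and 0.09 for the resistant lines, near all genes. Those of PSCA lay at 0.21 and 0.29, above all genes, with PSCA itself at 1.30 and 0.02. Copy number was not measured, and the part of gene dosage in these levels was not tested.

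Over the 4 libraries, likeness was measured as the distance between log2(CPM + 1) profiles centred on their mean, among 8327 genes with at least 10 CPM in a library. Between the antigens themselves, STEAP4 left aside for its few UMIs, CD276 and CD46 were closest, 0.29 apart. STEAP1 and STEAP2 were 0.45 apart, EPCAM and CD46 0.52, FOLH1 and STEAP1 0.52, and STEAP2 and EPCAM 2.11. Within 0.25 lay 10 genes for STEAP1 and 2 for STEAP2, so each had closer genes than the other. Nearest to FOLH1 was MANEA (distance 0.14), an enzyme of glycan trimming, at 21.0, 31.1, 13.8 and 11.4 CPM, and it was the only gene within 0.25. Nearest to STEAP1 was CFD, complement factor D (0.12, 18.4, 20.1, 9.61 and 6.07 CPM), and nearest to STEAP2 was VCX (0.10, 10.7, 12.4, 3.40 and 3.56 CPM). Nearest to PSCA was USP46-AS1 (0.11), an antisense RNA, followed by FOXRED2 (0.13) at 23.1, 21.6, 55.2 and 25.9 CPM. For EPCAM, CD46 and CD276, 436, 1184 and 1640 genes lay within 0.25, so their nearest genes (CEBPA, FAM104A and ATXN2L) single out little.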

How the data were processed

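Droplet-based 3′ scRNA-seq libraries of parental LNCaP, treated LNCaP-ENZ48 and both resistant lines were analysed, 1 per group, with groups taken from the sample titles. The authors deposited UMI counts per gene and barcode, made with Cell Ranger 3.0.2 and its GRCh38 reference, and these counts are not normalized. Reads that fit several genes are not counted by Cell Ranger, which can lower the counts of genes with near copies. Coordinates came from GENCODE 44 on GRCh38, matched by gene ID.

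Cells were filtered by the limits the study used for each library (LNCaP above 16000 and below 50000 UMIs, the others above 5000 and below 25000, with limits on genes and mitochondrial share). UMIs were summed over kept cells and given as CPM with exact Poisson 95% intervals. Ratios had exact conditional binomial (Clopper-Pearson) intervals and shares of cells Clopper-Pearson intervals. No test was run, since cells are not replicates. A count of 0 was read against a floor of 3 UMIs or cells per library. Intervals and floors cover counting error only. Doublets were not removed. Scrublet (scanpy 1.11.5) marked 18 cells, too few to have worked, and an alternative left out the 547 cells of highest score. Phases were called with the Seurat gene lists in scanpy, which found 42 S and 54 G2/M genes. Alternatives changed the cell filter, scaling (edgeR 4.0.16 TMM, DESeq2 1.42.0 size factors, a total without mitochondrial and ribosomal protein genes), cell weighting, doublets, phase, thinning and the definition of a positive cell. The ratio calculation was tested on simulated data. Named were the 8 antigens, related genes with at least 10 CPM in a library, markers, and per antigen the genes of most similar profile. CD274, VTCN1, STEAP3, STEAP1B, CR1 and CR1L are listed family members under 10 CPM, named after their values were seen. Some genes of the lists are not reported here. The antigens and gene lists were chosen with earlier results of these data known.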

Additional observations from a re-analysis of the deposited data

How the results depend on the processing

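The 4 comparisons of the antigens were recomputed under 8 alternatives, which gave 224 ratios. None of the ratios past 2-fold changed direction. There were 13 changes of sign, all for CD276 or for PSCA in RES-B, whose log2 ratios were within 0.08 of 0 to begin with, and the largest shift of any ratio was 0.15. Of the 224 ratios, 53 moved beyond their counting interval. Among them were 16 of 28 with TMM scaling and 15 of 28 with DESeq2 size factors. With TMM, CD46 in LNCaP-ENZ48 against LNCaP went from -0.19 to -0.09. The choice of scaling can thus shift a ratio by more than its printed interval covers. The number of antigens past 2-fold differed in 1 case: with cells called G1 alone, 1 antigen in place of 2 was lower in RES-A, since STEAP1 then stood at -0.95. Across alternatives FOLH1 ranged from 0.62 to 0.79 in LNCaP-ENZ48 and from -0.95 to -0.79 in RES-B, and EPCAM from 0.67 to 0.78 in RES-B.

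The mean number of antigens detected per cell depends on depth by construction. Thinned to 2000 UMIs it was 1.62 and 1.77 for LNCaP and LNCaP-ENZ48 and 1.13 and 1.09 for RES-A and RES-B. In this order it was 5.23, 4.41, 3.71 and 3.66 without thinning, and with at least 2 UMIs required 1.26, 1.57, 0.777 and 0.697. With 1 filter for all libraries RES-B stood at 2.16. Both resistant lines were below LNCaP and LNCaP-ENZ48 in each of these. Without thinning LNCaP lies above LNCaP-ENZ48, at its greater depth.

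With genes of at least 1 CPM in place of 10, the share of all genes past 2-fold was larger, at 0.645% higher and 1.34% lower for LNCaP-ENZ48, 9.57% and 7.5% for RES-A, and 9.12% and 5.95% for RES-B against LNCaP, and 5.96% and 4.99% in RES-B against RES-A. With at least 50 CPM, 0.329% were higher in LNCaP-ENZ48. No paired analysis was possible because each group has 1 library and no result comes from a test, and leaving out a replicate could not be run for the same reason. Depth limits PSCA and STEAP4 most, with few UMIs per library.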
